A study of Mus musculus with 7 samples.

Results

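A set of 10 genes of cell division was followed on mouse arrays: Anln, Ect2, Racgap1, Prc1, Cep55, Shcbp1, Aspm, Tpx2, Top2a and Mki67. They were taken by name, as every non-control probe that the array annotation gives to one of them, which came to 14 probes for 10 genes among 39429 probes and 31829 gene names. RNA came from cultures of C2C12, a line of mouse myoblasts that can be made to fuse into myotubes, after 24 h of contact with exosomes that other C2C12 cultures had released. In the EXO-Post BSA group (4 arrays) the donor cultures had received BSA alone. In the EXO-Post Palm group (3 arrays) they had received palmitate at 0.5 mmol/l, and exosomes were gathered 9 h after its removal from the medium. The same 9 h is the time given for the EXO-Post BSA group. No recipient culture was given palmitate directly, and both groups carry exosomes, so no array of recipient cells without exosomes was compared here. The labels call the recipient cells myoblasts, and the methods call them myotubes. All 27 myotube markers examined were well above background on all 7 arrays, among them Myog and Ckm, and so were the myoblast markers apart from Myf5 (no array) and Pax3 (3 arrays). The labels call the samples of a group biological replicates without saying whether each had its own preparation of exosomes, and the p-values cover only the spread between these samples.

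Cell division ends with cytokinesis. A bundle of antiparallel microtubules forms between the parted chromosomes, and there it gathers the proteins that switch on RhoA and build a ring of actin and myosin under the membrane. The ring closes onto the midbody, a thin bridge that is then cut. Prc1 bundles the microtubules. Racgap1 forms the centralspindlin complex with the kinesin Kif23 and recruits Ect2, the exchange factor that activates RhoA. Anln, or anillin, ties the ring to the membrane. Shcbp1 and Cep55 sit at the midbody, where Cep55 recruits the machinery that cuts the bridge. Aspm and Tpx2 act earlier, at the spindle poles and on spindle microtubules. Top2a untangles sister DNA molecules, and Mki67 encodes Ki-67, which coats mitotic chromosomes and is the usual stain for cycling cells. Myotubes have left the cell cycle for good, while myoblasts and the unfused cells of a differentiated culture can still divide. Transcripts of this kind peak in G2 and mitosis. Many of their promoters are known to hold a cell cycle genes homology region (CHR), often downstream of CCAAT boxes, the binding sites of NF-Y.

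Promoter windows in the RefSeq table (GRCm38.p6, 250 bases before to 50 after the annotated start, the first window listed per gene) were found for 8 of the 10 genes, all except Shcbp1 and Tpx2. Windows are shown from 150 bases before to 30 after the start for the 4 genes with a window that passed the test between the groups, and for Cep55, the gene with the smallest change. They are written 5′ to 3′ on the strand of the gene, with capitals for each CHR (TTTGAA or TTTAAA) and each CCAAT, on either strand, so that TTCAAA and ATTGG mark matches on the opposite strand. Ect2 lies on the minus strand (chr3:27153849-27154028), as do Top2a (chr11:99024160-99024339) and Mki67 (chr7:135716350-135716529), and Prc1 (chr7:80294301-80294480) and Cep55 (chr19:38054834-38055013) lie on the plus strand.
Ect2: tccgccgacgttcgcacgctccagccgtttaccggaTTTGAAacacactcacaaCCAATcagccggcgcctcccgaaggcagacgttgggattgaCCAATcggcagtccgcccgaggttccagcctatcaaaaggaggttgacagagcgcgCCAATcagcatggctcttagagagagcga
Prc1: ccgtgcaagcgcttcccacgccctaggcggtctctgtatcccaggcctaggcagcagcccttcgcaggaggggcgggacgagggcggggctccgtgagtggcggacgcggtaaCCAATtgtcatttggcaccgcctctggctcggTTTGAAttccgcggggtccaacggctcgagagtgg
Top2a: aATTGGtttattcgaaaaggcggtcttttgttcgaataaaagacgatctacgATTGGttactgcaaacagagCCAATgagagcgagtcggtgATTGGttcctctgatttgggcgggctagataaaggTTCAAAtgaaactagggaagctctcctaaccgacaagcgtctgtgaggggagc
Mki67: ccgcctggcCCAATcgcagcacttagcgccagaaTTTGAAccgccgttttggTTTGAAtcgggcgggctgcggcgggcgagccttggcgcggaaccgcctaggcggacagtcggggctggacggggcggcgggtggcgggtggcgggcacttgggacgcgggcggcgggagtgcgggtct
Cep55: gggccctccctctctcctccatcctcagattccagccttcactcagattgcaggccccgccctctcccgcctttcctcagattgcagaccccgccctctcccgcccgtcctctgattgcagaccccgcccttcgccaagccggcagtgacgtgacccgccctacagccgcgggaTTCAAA

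All 8 windows held a CHR, and each had at least 1 in the form TTTGAA. Of the 27025 genes in the table, 27.8% held a CHR of either form and 18.1% held TTTGAA. Among the 9281 genes with both a window and a tested probe, the share with TTTGAA was 12.1%. It was 40.0% among 55 further genes that were higher with EXO-Post Palm by the test described below. Among 9 genes that were lower by the same test it was 22.2%. Both sets were chosen on these arrays. The CHR began 5 bases before the start in Prc1 and ran from base 6 to 11 after it in Racgap1. In Aspm a TTTGAA lay at bases 7 to 12, with 2 copies of TTTAAA upstream, and in Mki67 there were 2 copies of TTTGAA, at -116 and at -98. Within the shorter stretch from -150 to 30 the share was still 8 of 8, against 16.7% of all genes. A CCAAT was found in 6 of the 8, with Anln and Cep55 lacking it, against 37.9% of all genes, and Top2a had 6 copies. Both motifs were present in 6 of 8 windows and in 10.9% of all. No window held any of 4 octamers of the E2F site (TTTCCCGC, TTTCGCGC, TTTGCCGC or TTTGGCGC), which 2.32% of all genes held. No match of one motif overlapped a match of another. These matches describe letters in the windows, and binding was not measured.

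**Figure D1:**
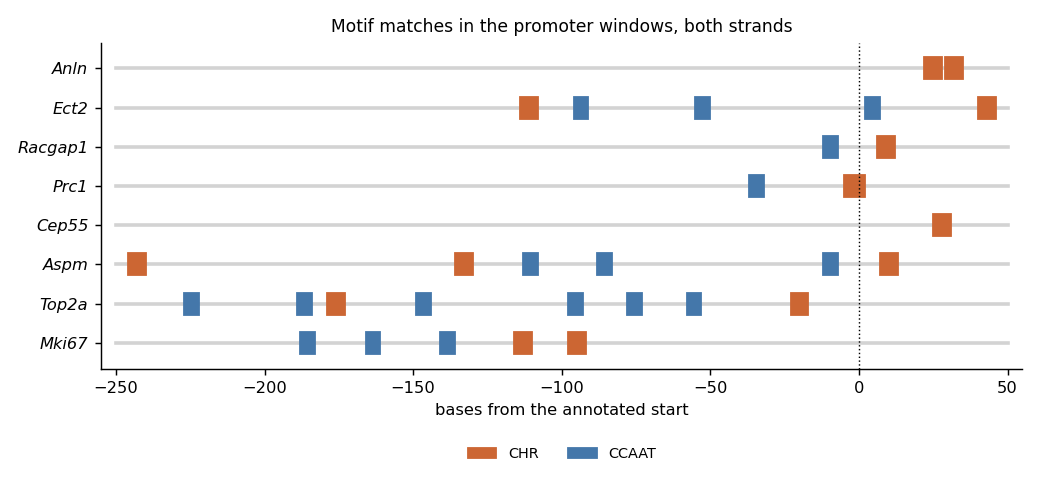
Matches to the CHR (TTTGAA or TTTAAA) and to CCAAT on either strand, by distance in bases from the annotated start (x axis), in the promoter windows of 8 genes (1 row each). All 8 rows carry a CHR, and the rows of Anln and Cep55 carry no CCAAT.

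Each of the 14 probes is 60 bases long and is printed once per array. The values are log2 of the processed signal after subtraction of each array's 75th percentile, so that 0 is that percentile and 1 unit is a doubling. The percentile itself lay between 549.4 and 1621, and 48.5 to 70.3% of the probes of an array carried the software's mark for signals well above background. A probe was tested if it carried that mark on at least 75% of the arrays in either group, which left 21589 probes and 12 of the 14. Precision is limited by the number of arrays. Of 4 slides, slide 1 carried EXO-Post BSA replicates 1 and 2 beside EXO-Post Palm replicate 1, and slide 3 carried EXO-Post BSA replicate 4 beside EXO-Post Palm replicate 3. EXO-Post BSA replicate 3 and EXO-Post Palm replicate 2 were alone on their slides. No array of the EXO-Post BSA group stood apart from its group by Dixon's test for any of the 14 probes.

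Transcripts of all 10 genes gave higher mean signals with EXO-Post Palm than with EXO-Post BSA. The difference passed an adjusted p of 0.05 for 6 of them, namely Ect2, Prc1, Shcbp1, Top2a, Mki67 and Tpx2, and not for Anln, Racgap1, Cep55 and Aspm. With the brightest probe of each gene, the median log2 fold change was 1.95, or 3.88-fold. Over the 12 tested probes the log2 fold changes ran from 0.81 (Cep55) to 3.11 (Aspm), with a median of 1.84, where the median over all 21589 tested probes was -0.02. By limma, which pools the spread over all probes, 6 of the 12 probes were called higher, against 0.463% of all tested probes. For 11 of the 12 the arrays of the groups did not overlap, against 5.4% of all tested probes in the same direction. For each of these 11 an exact permutation of the group labels (2-sided) gave p = 0.0286, the smallest that 4 arrays against 3 allow. That value largely restates the lack of overlap by which the 11 were picked. The 12 probes had passed the filter in both groups, and the other 2 are given below with their values. Because the arrays read RNA of the whole culture, more dividing cells and more of these transcripts per cell cannot be told apart.

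**Figure D2:**
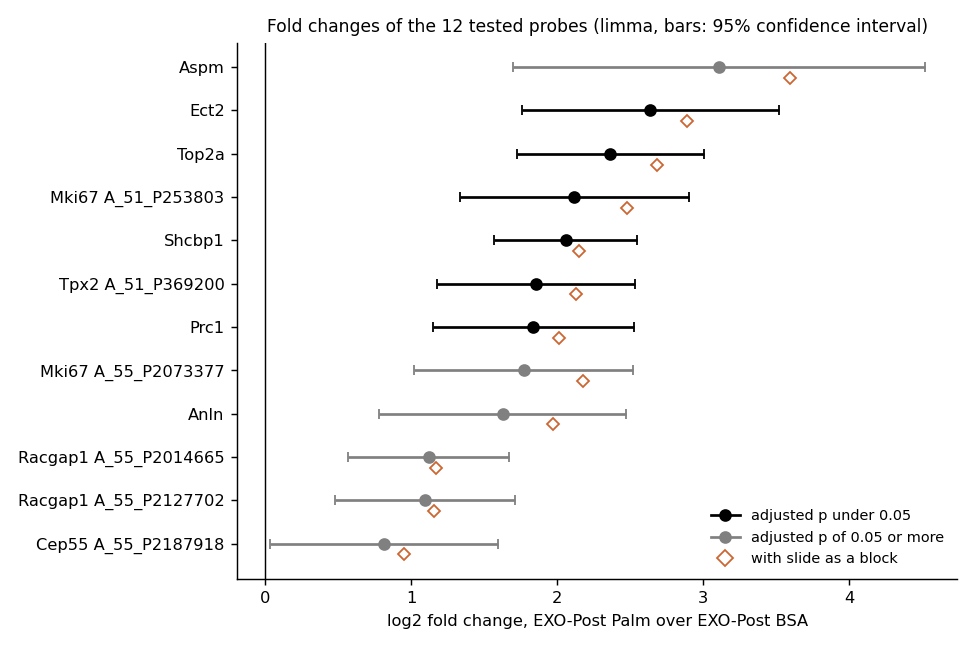
Log2 fold change (x axis, EXO-Post Palm over EXO-Post BSA) of the 12 tested probes (rows), as points with bars for the 95% confidence interval of limma, in black where the adjusted p is under 0.05, and with open diamonds for the model with slide as a block. Every point lies above 0, from 0.81 for Cep55 to 3.11 for Aspm.

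Among the regulators of the ring, Ect2 rose most. The log2 signal of Ect2, the activator of RhoA, was -2.11, -1.74, -2.70 and -2.20 with EXO-Post BSA (here and below in the order of the replicates) and 0.61, -0.42 and 1.16 with EXO-Post Palm. All 3 EXO-Post Palm arrays lay more than 1 log2 unit above the highest EXO-Post BSA array. The means were -2.19 ± 0.40 (SD, n = 4) and 0.45 ± 0.80 (SD, n = 3), which differ by 2.64 (standard error 0.386, limma adjusted p = 0.0311). Its probe covers chr3:26996278-26996337 (mm9, minus strand). A further probe, annotated to a transcript described as ECT2 but not carrying the gene's name, was well above background on no EXO-Post BSA array and on 2 EXO-Post Palm arrays. It read -6.22, -5.67, -6.36 and -6.31 with EXO-Post BSA and -4.90, -6.01 and -4.41 with EXO-Post Palm, and it was not tested.

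Racgap1, which brings Ect2 to the middle of the cell, had 2 tested probes that overlap by 10 bases (the brighter at chr15:99451768-99451827, mm9). The brighter read -0.10, -0.29, 0.18 and 0.46 with EXO-Post BSA and 0.97, 0.89 and 1.60 with EXO-Post Palm. The groups did not overlap, but the gap between the nearest arrays was under 0.5 log2 units. Its log2 fold change was 1.09 (standard error 0.270, adjusted p = 0.184), and that of the other probe was 1.12 (standard error 0.242, adjusted p = 0.124). Neither passed, and both were close to a doubling.

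For Anln, the scaffold of the ring, the log2 signal was 0.66, -0.07, 0.20 and -0.43 with EXO-Post BSA and 1.57, 1.11 and 2.47 with EXO-Post Palm (chr9:22136685-22136744, mm9). The 3 EXO-Post Palm arrays were all above the 4 others, and the spread within each group was wide (0.46 and 0.69, SD). With a standard error of 0.372, the difference of 1.63 log2 units had an adjusted p of 0.144. Prc1, the bundler of central spindle microtubules, differed from it in its controls (chr7:87461048-87461107, mm9). Its 4 EXO-Post BSA values of -0.08, 0.03, 0.12 and 0.05 were nearly level, and the EXO-Post Palm arrays read 1.57, 1.40 and 2.62. The change of 1.84 (standard error 0.302) passed (limma adjusted p = 0.0436).

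At the midbody, the 2 genes differed. Shcbp1 had the smallest adjusted p of the 10 genes in this model. Its signal was -2.10, -2.17, -2.02 and -1.89 with EXO-Post BSA and -0.04, -0.26 and 0.33 with EXO-Post Palm (chr8:4736001-4736060, mm9). Within each group the arrays lay close together (SD 0.12 and 0.30), and the rise of 2.06 log2 units (standard error 0.214, limma adjusted p = 0.0108) was 4.16-fold. Cep55 was the single gene whose groups overlapped. Its tested probe read -3.58, -2.81, -3.76 and -3.26 with EXO-Post BSA and -2.55, -3.15 and -1.91 with EXO-Post Palm, so that EXO-Post Palm replicate 2 fell below EXO-Post BSA replicate 2. The log2 fold change was 0.81, with a 95% confidence interval of 0.03 to 1.60 (adjusted p = 0.482, exact permutation p = 0.114).

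Cep55 and Tpx2 each had a further probe that did not pass the filter, and the first 30 of the 60 bases of both probes of each gene are shown because 1 probe of each gene was detected on too few arrays to be tested.
Cep55 (tested, chr19:38131973-38132032): gagttccagactctcctgggctgccttgag
Cep55 (not tested, chr19:38146320-38146379): ctatgtgattcttaaggaactccgaaaagc
Tpx2 (tested, chr2:152719476-152719535): cgccatgtttggaaacacacctgataacta
Tpx2 (not tested, chr2:152720285-152720344): gcccagtgcaaaggcatgtatttcaactta

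All 4 lie on the plus strand of mm9, and which exon or untranslated region each lies in was not determined here. The untested Cep55 probe was well above background on 1 of 7 arrays, an EXO-Post Palm array, and its values of -6.97, -5.97, -5.22 and -4.65 with EXO-Post BSA and -4.97, -5.40 and -5.48 with EXO-Post Palm showed no separation of the groups (exact permutation p = 0.600). The untested Tpx2 probe, annotated to another RefSeq transcript than the tested one, passed on 1 EXO-Post BSA array and 2 EXO-Post Palm arrays. It read -4.25, -6.40, -4.86 and -6.62 with EXO-Post BSA and -3.50, -5.02 and -3.33 with EXO-Post Palm, and the groups overlapped (exact permutation p = 0.143). No fold is given for either.

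Of the spindle genes, Tpx2, the activator of Aurora A, passed with its tested probe. It read -2.04, -1.80, -1.70 and -1.84 with EXO-Post BSA and -0.09, -0.57 and 0.69 with EXO-Post Palm. The lowest EXO-Post Palm array was more than 1 log2 unit above the highest EXO-Post BSA array. The log2 fold change of 1.85 passed (standard error 0.298, limma adjusted p = 0.0427). Aspm, which holds microtubules at the spindle pole, had the largest fold change of the 12 probes on the processed signal, and the widest spread (chr1:141390377-141390436, mm9, plus strand). Its signal was -4.41, -3.21, -4.15 and -3.03 with EXO-Post BSA and -0.22, -2.13 and 0.57 with EXO-Post Palm. EXO-Post Palm replicates 1 and 3 were far above every EXO-Post BSA array, and replicate 2 was less than 1 log2 unit above the highest. One of the 4 EXO-Post BSA arrays was not well above background for it. The log2 fold change of 3.11 had a 95% confidence interval of 1.70 to 4.52 and did not pass (adjusted p = 0.0896). Its size depended on the signal used. With the median signal of the spots it was 2.25, below the 2.36 of Ect2, and passed both with normexp (limma adjusted p = 0.0343) and without background subtraction (adjusted p = 0.0449).

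Of the chromosome genes, Top2a, the topoisomerase of dividing cells, read -2.05, -1.96, -2.22 and -2.67 with EXO-Post BSA and 0.34, -0.39 and 0.46 with EXO-Post Palm (chr11:98855522-98855581, mm9). The groups were clearly apart, with a 5.14-fold rise (2.36 log2 units, standard error 0.281, limma adjusted p = 0.0141). Mki67 had 2 tested probes, both on chromosome 7. The first (chr7:142881591-142881650, mm9) read 0.50, 0.43, 0.08 and -0.29 with EXO-Post BSA and 2.39, 1.58 and 2.91 with EXO-Post Palm. Before scaling, these were intensities of 592 to 1634 and of 1940 to 8499. For the second (chr7:142884764-142884823, mm9) the values were 0.16, 0.23, 0.33 and 0.27, then 2.22, 1.18 and 2.65. Both probes separated the groups and ordered the EXO-Post Palm arrays alike. The log2 fold changes were 2.12 (standard error 0.344, limma adjusted p = 0.0436) and 1.77 (standard error 0.330, adjusted p = 0.0701), so the gene is called by 1 of its 2 probes.

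**Figure D3:**
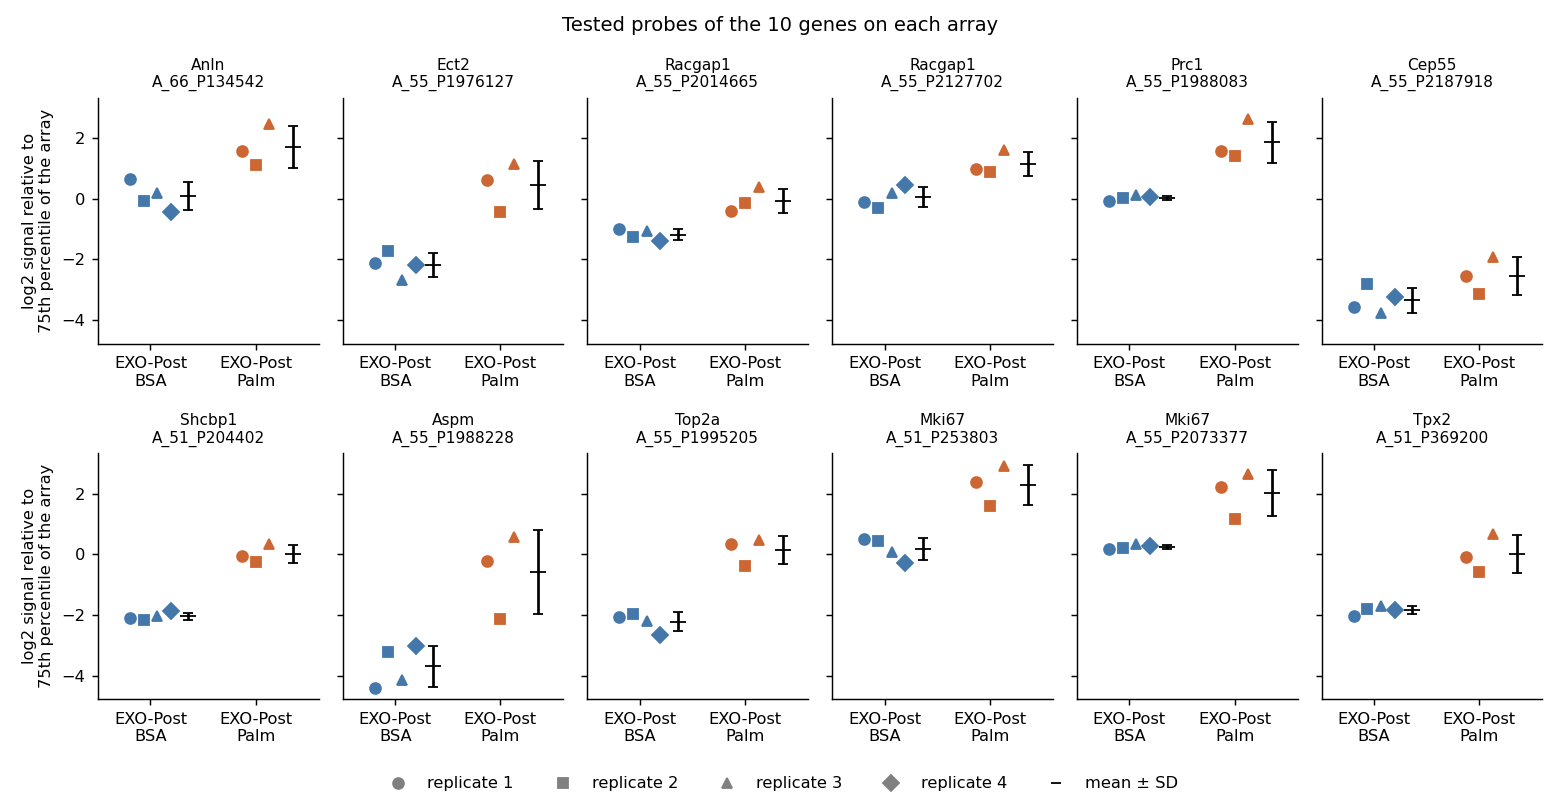
Log2 signal relative to the 75th percentile of the array (y axis) for the 12 tested probes (panels) on the 4 EXO-Post BSA and the 3 EXO-Post Palm arrays, with 1 symbol per replicate number and mean ± SD beside them. The groups are apart in 11 panels and overlap in that of Cep55.

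The fold changes of neighbours in this order cannot be told apart by their intervals. The 95% confidence intervals of Aspm, Ect2, Top2a, Mki67, Shcbp1, Tpx2, Prc1 and Anln all overlap one another. That of Cep55 (0.03 to 1.60) ends below those of Ect2 (from 1.76), Top2a (from 1.72) and Aspm (from 1.70). Those of the Racgap1 probes (to 1.67 and 1.71) end below those of Ect2 and Top2a. These comparisons are between probes on the same arrays and were not tested.

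The 3 EXO-Post Palm arrays stood in the same order for every gene. With the brightest probe of each, replicate 3 was the highest, replicate 1 the next and replicate 2 the lowest in 10 of 10 genes. The other Racgap1 probe departed from this, reading -0.41 on replicate 1 and -0.15 on replicate 2. So did the untested Cep55 probe, which was highest on replicate 1 and lowest on replicate 3. The share of all tested probes with this order is not given here. The median difference of the 10 genes from their EXO-Post BSA means was 1.88 on replicate 1, 1.39 on replicate 2 and 2.56 on replicate 3. Even on replicate 2 every gene was above its EXO-Post BSA mean, from 0.20 for Cep55 to 1.84 for Top2a. The 4 EXO-Post BSA arrays had no such order. Their medians lay between -0.08 and 0.15, and the highest array was replicate 1 in 2 genes, replicate 2 in 3, replicate 3 in 2 and replicate 4 in 3. After the group means were subtracted, Pearson's r over the 7 arrays had a median of 0.69 over the 45 pairs of genes, from -0.07 to 0.96, a description of values that share the arrays and their scaling.

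**Figure D4:**
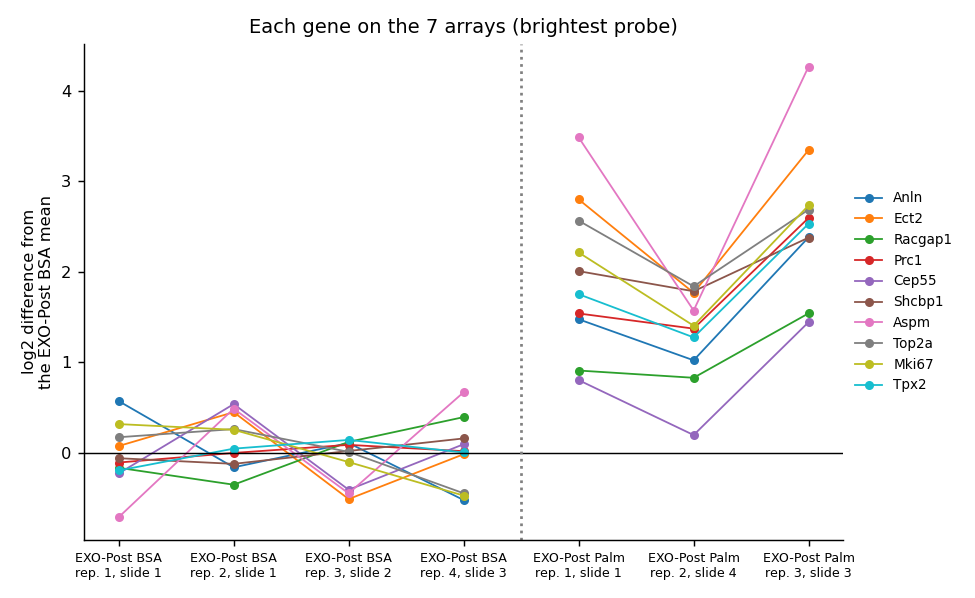
Log2 difference of each gene's brightest probe from its EXO-Post BSA mean (y axis) on the 7 arrays (x axis, with their slide). Lines join the values of 1 gene and stand for no order in time. On the EXO-Post Palm arrays all 10 genes share the order replicate 3, replicate 1, replicate 2.

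The groups were compared within slides as well. On slide 1 the EXO-Post Palm array exceeded the mean of the 2 EXO-Post BSA arrays for all 12 tested probes, by 0.65 (Cep55) to 3.59 (Aspm) on the log2 scale. On slide 3 it exceeded the EXO-Post BSA array for all 12, by 1.15 (Racgap1) to 3.60 (Aspm). With slide as a block, EXO-Post BSA replicate 3 and EXO-Post Palm replicate 2, each alone on its slide, add nothing to the fold changes. EXO-Post Palm replicate 2 was the lowest array of its group for the brightest probe of every gene. Compared with the model on condition alone, every fold change was larger in this slide model. Aspm passed in that model (3.60, standard error 0.387, limma adjusted p = 0.0327), as did the second Mki67 probe (2.18, adjusted p = 0.0327), whereas Prc1 did not (2.01, adjusted p = 0.0545).

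The number of genes called depended on single arrays, and their direction did not. All 12 probes kept a positive fold change without any 1 of the 7 arrays. By limma, none passed without EXO-Post Palm replicate 1 or without EXO-Post Palm replicate 3, although 11 of 12 had an unadjusted p under 0.05 in each case. Of all tested probes, 0.0139% and 0.018% were called higher in these models. In either direction, 2536 of 21595 and 1516 of 22199 had an unadjusted p under 0.05. Without EXO-Post Palm replicate 2, 8 of 13 probes passed, against 0.83% of all tested probes called higher. Without EXO-Post BSA replicates 1, 2, 3 and 4 the counts were 2, 3, 2 and 2 of 12. The shares of all tested probes called higher were then 0.297, 0.302, 0.279 and 0.267%. Shcbp1 and Top2a passed in 5 of these 7 models, in all except those without EXO-Post Palm replicates 1 and 3 (highest adjusted p 0.0585 and 0.0780). Ect2 passed in 2, without EXO-Post BSA replicate 2 and without EXO-Post Palm replicate 2. Prc1, Aspm, Tpx2 and both Mki67 probes passed in 1, that without EXO-Post Palm replicate 2, and Anln, Racgap1 and Cep55 in none.

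Other genes of the same processes were read from lists, with the brightest tested probe of each gene. Of all tested probes, 0.463% were called higher by limma, and 4.85% were higher and 5.19% lower at an unadjusted p under 0.05. Among 31 tested cytokinesis partners 13 were higher and 3 lower at that unadjusted p. After adjustment 5 were called higher and none lower. The 5 were Kif23, the partner of Racgap1 in centralspindlin (2.15 on the log2 scale, adjusted p = 0.0175), the mitotic kinesins Kif20a (2.18) and Kif20b (2.70), the kinase Plk1 (2.19), which primes Ect2 binding to centralspindlin, and the microtubule destabiliser Stmn1 (1.89). The median of this list was 0.28, well below that of the 10 genes, and 22 of 31 were positive. Its lowest value was that of Pdcd6ip, which acts in the cutting of the midbody (-0.97, adjusted p = 0.432). Of 31 spindle assembly partners 13 were higher and 0 lower at an unadjusted p under 0.05. After adjustment 4 were called, all higher. These were Aurka (2.40, adjusted p = 0.0495), the kinase that Tpx2 activates, Tacc3 (1.80), which it phosphorylates, the kinesin Kif18b (2.27) and the microtubule protein Ckap2 (2.59). The median was 0.40, and Cltc had the lowest value (-0.65, adjusted p = 0.502).

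Among 36 genes of chromatin and chromosome structure 16 were higher and 0 lower by limma at an unadjusted p under 0.05 (4.85% and 5.19% of all tested probes). After adjustment 4 were called higher and none lower, where 0.463% of all tested probes were called higher. They were Cenpa, the histone variant of centromeres (2.86, adjusted p = 0.0153), the histone chaperone Asf1b (2.45), Hmgb2 (1.92) and the condensin subunit Ncaph (1.76). The median was 0.61, and with slide as a block 2 genes of this list passed in place of 4. The 28 further proliferation markers had the highest median, 1.47, with 27 of 28 positive. At an unadjusted p under 0.05, 20 of the 28 were higher and 0 lower. By limma 7 of them passed, all higher, with Bub1b (2.93, adjusted p = 0.0108), Ccnb2 (2.82), Cdc20 (2.76) and Ccnb1 (2.76) first, then Pbk (2.61), Ube2c (2.16) and Bub1 (1.95). The lowest was Rrm1, a subunit of ribonucleotide reductase (-0.23, adjusted p = 0.894). The list of 26 genes of cell cycle exit holds CDK inhibitors and pocket proteins, but also others, among them the cyclins Ccnd2, Ccnd3, Ccng1 and Ccng2, E2f4, E2f5 and Trp53. None of the 26 passed, while 1 was higher and 6 lower at an unadjusted p under 0.05 (4.85% and 5.19% of all tested probes). The median was -0.27, from -1.15 for E2f4 (adjusted p = 0.513) to 0.89 for Rbl1 (adjusted p = 0.397). With slide as a block the medians of the 5 lists were 0.54 for the cytokinesis partners, 0.49, 0.73, 1.78 and, for cell cycle exit, -0.19. In the same order, 6, 6, 2, 7 and 0 genes were then called higher, against 0.477% of all tested probes.

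**Figure D5:**
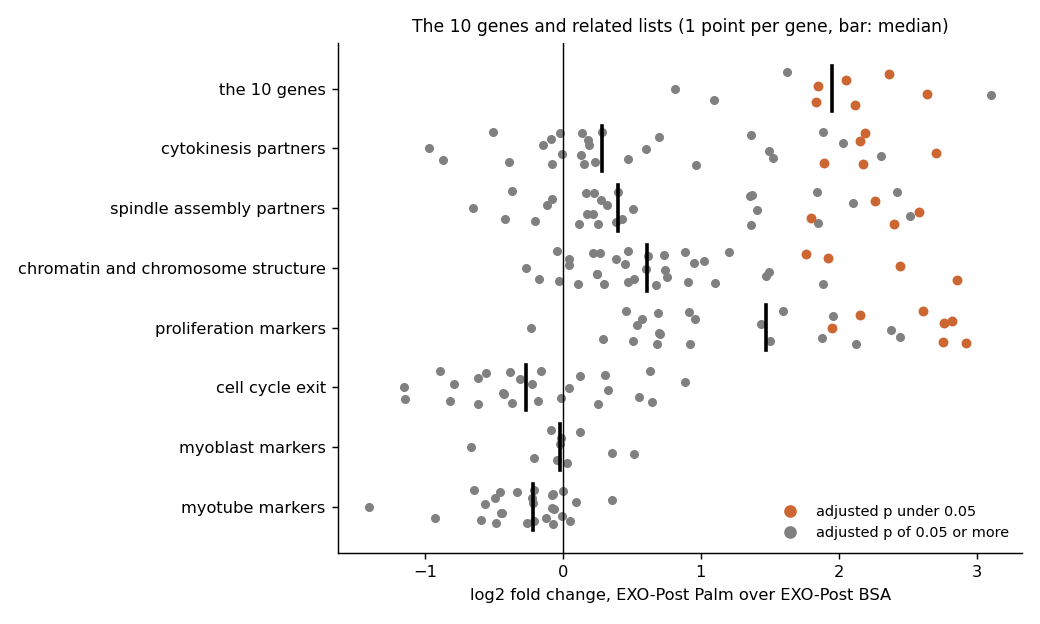
Log2 fold change (x axis, EXO-Post Palm over EXO-Post BSA) of single genes (points, orange where the adjusted p is under 0.05) in the 10 genes and in 7 related lists (rows), with a bar for the median. The medians are 1.95 for the 10 genes, 1.47 for proliferation markers and between 0.28 and 0.61 for the other division lists, and the last 3 rows have medians from -0.27 to -0.02.

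Markers of the cells a C2C12 culture could hold were read beside these genes. No gene of the myoblast, myotube, adipocyte, osteoblast, macrophage, endothelial or fibroblast lists passed by limma, with 4 higher and 8 lower of 58 at an unadjusted p under 0.05 (4.85% and 5.19% of all tested probes). The median log2 fold change was -0.02 over 10 tested myoblast markers and -0.22 over 27 myotube markers, with Neb lowest (-1.40, adjusted p = 0.503), or 0.03 and -0.38 with slide as a block. Positive fold changes were found in 4 of 10 myoblast and 3 of 27 myotube markers, against 47.3% of all tested probes. By limma at an unadjusted p under 0.05, 0 myotube markers were higher and 4 lower. For the myoblast markers these counts were 0 and 1. The signals of the myoblast markers, summed as multiples of the array's 75th percentile, ran from 225 to 252 with EXO-Post BSA and from 133 to 187 with EXO-Post Palm. For the myotube markers these sums were 2042 to 2349 and 1596 to 2093. Like those of the myoblast markers, and unlike those of the myotube markers, which overlapped, the sums were lower without overlap for the 7 fibroblast markers (289 to 354 against 186 to 272) and for 4 macrophage markers (7.85 to 18.1 against 5.95 to 7.56), and higher for 4 osteoblast markers (23.7 to 29.6 against 32.1 to 47.7). Such sums are set by the brightest probes. The median log2 fold change was positive for the fibroblast markers (0.29, 4 of 7 positive) and the macrophage markers (0.51, 3 of 4 positive), although their sums were lower. For the osteoblast markers it was 0.33, with 3 of 4 positive. Lyz2, Cfd, Sp7, Alpl, Cdh5, Tek and Emcn were well above background on no array. The part of these shifts in the values of the 10 genes was not tested.

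Over the 7 arrays, the genes outside the 10 whose values followed the mean of the 10 most closely were 5330438D12Rik (Pearson's r = 0.997), Angptl4 (0.995), Aurka (0.995), Apln (0.995) and Bub1 (0.994). Aurka and Bub1 act in mitosis, Angptl4 encodes a secreted inhibitor of lipoprotein lipase, and Apln encodes the secreted peptide apelin. Apln was well above background on 0 EXO-Post BSA arrays and on 3 EXO-Post Palm arrays. It was therefore tested only through the group where it was higher, and its EXO-Post BSA values are background signal. Like the 10 genes, all 5 were highest on EXO-Post Palm replicate 3 and lowest, within that group, on replicate 2. Because the 5 were chosen by this correlation, that order largely follows from the choice. Of 17467 genes compared, 301 had an r above 0.9 and 265 an r below -0.9. These points share the arrays, their scaling and the difference between the groups.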

How the data were processed

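RNA of 7 C2C12 cultures was read on 1-colour Agilent mouse arrays. The cell line label differs in its last digits from sample to sample, counting up, and all samples were taken as C2C12 after their source name. The authors deposited, for each array, the scanner software's output, with an intensity per spot corrected for background and for trends across the array but not between arrays, and a table of processed log2 values with the same distribution on every array, made with Agi4x44PreProcess and limma. The submitters' processing notes name Agilent Feature Extraction 9.1, while the file headers name later versions. For EXO-Post BSA replicate 3 a later software version was used, and its output lacks the mean signal.

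Control spots and spots marked as uneven or as outliers were left out, log2 was taken and each array's 75th percentile (43020 non-control spots) was subtracted, which assumes that this percentile is alike in all cultures. A linear model on condition alone was fitted with limma 3.58.1 (R 4.3.3), with Benjamini-Hochberg adjustment over 21589 probes, 2-sided, at 0.05. The model was tested on simulated data.

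The genes, lists, motifs and tests were chosen with earlier results of these data known. Named are every probe of the 10 genes, the genes of each list that passed or else its largest rise and fall, and the 5 genes most alike. Alternatives covered background, scaling, probe filter, slide, replicate number, array weights, moderation, the methods' t-test and each array left out. Where the mean signal was to be used, the median signal took its place. Samples share the replicate numbers used here with no stated pairing, and their titles carry other numbers, which the groups do not share. Arrays with the same replicate number did not deviate together (correlations 0.12, -0.15 and -0.15). Gene symbols and positions are those of the array annotation (mm9), and promoters are from RefSeq.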

Additional observations from a re-analysis of the deposited data

How the results depend on the processing

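The tested probes of the 10 genes kept a positive fold change under every alternative run, and the median log2 fold change stayed between 1.64 and 2.15 apart from the models with 1 array left out, where it ran from 1.48 to 2.14. Without a probe filter no probe of the 10 genes and 0 of 39429 in all passed by limma, with 12 and 1900 at an unadjusted p under 0.05. Replicate number as a block, which uses arrays that share only a number, also gave 0 and 0, with 11 of 12 and 1933 at an unadjusted p under 0.05, and each of the 3 EXO-Post Palm arrays deviated most like an EXO-Post BSA array of another number. The methods' t-test called 11 of the 12 probes and 2108 of all probes unadjusted, and 0 and 0 after Benjamini-Hochberg adjustment. Other models moved the count over all probes from 115 to 181 (slide as a random block), 180 (array weights) and 173 (trend and robust moderation), with 7 or 8 of the 12 probes passing. With 1 array left out, between 4 and 228 of all probes and between 0 and 8 of the probes of the 10 genes passed. Why these counts moved was not tested. With the median signal, an alternative added after the data were seen, the log2 fold change of Aspm was 2.25 in place of 3.11, both with normexp and without background subtraction, and the cause was not tested. Aspm was then below Ect2 (2.36 and 2.35).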
